A study of Rattus norvegicus with 6 samples.

Results

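The collagen chains were followed in blood vessel endothelial cells of rat skin with and without Il33, the gene of interleukin-33. Members were all genes whose symbol in the platform annotation has the form Col, a number, a and a number, which gave 20 of the 15037 gene symbols named on the arrays. Each chain was measured by 1 probeset. The rule used no measured value. It divides the chains into 4 of basement membranes (Col4, Col15 and Col18 genes), 5 of fibrils (Col1, Col3 and Col5 genes) and 11 others. The Col2 and Col11 chains of cartilage fibrils are counted among the others, so the fibrillar class here is partial. Collagen chains that the annotation does not list, such as Col4a2, were not analysed here.

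RNA came from abdominal skin of 6 Sprague-Dawley rats. The Il33 knockout animals were numbered 28, 27 and 52 and the wildtype animals 34, 45 and 37, and values are listed below in that order. Animals 52 and 37 were male and the others female. The labels give no age, no litters and no account of the Il33 deletion. The skin was digested with collagenase I and DNase I at 37 °C. Cells with CD45, a leukocyte marker, and with Lyve-1, a lymphatic marker, were then removed on magnetic beads, and cells with CD31 were kept. Each array holds the RNA of 1 animal and of all cells that passed the sort. In such bulk RNA, fewer cells of a type and less RNA per cell cannot be told apart.

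Collagens are secreted proteins whose chains wind around each other into stiff helices. The fibrillar collagens of the rule, types I, III and V, are made mainly by fibroblasts and give the dermis its tensile strength. Endothelial cells make the network collagen of type IV that lies under them, and types XV and XVIII are found in vascular basement membrane zones. The C-terminal fragment of type XVIII is endostatin, an inhibitor of blood vessel growth. Chains are hydroxylated and folded in the endoplasmic reticulum, exported, trimmed and cross-linked by enzymes that the collagen types largely share.

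A stretch of promoter is shown for a fibrillar and for a basement membrane chain, the classes that are set against each other below. Of the 20 chains 15 had an entry in the RefSeq promoter table (GRCr8). The first stretch lies at chr4:33518307-33518426 on the + strand, 250 to 131 bases before the annotated start of Col1a2. The second, at chr16:84885521-84885596 on the + strand of Col4a1, is the whole of the 76 bases between the annotated starts of Col4a1 and Col4a2, which are transcribed away from each other. Capitals mark matches to the CCAAT box (CCAAT), the TATA box (TATAAA) and the GC box (GGGCGG), searched on both strands.
Col1a2: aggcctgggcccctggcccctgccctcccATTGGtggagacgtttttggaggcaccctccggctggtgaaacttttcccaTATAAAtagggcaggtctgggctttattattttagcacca
Col4a1 with Col4a2: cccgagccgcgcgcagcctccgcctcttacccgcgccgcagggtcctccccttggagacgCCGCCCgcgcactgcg
The Col1a2 stretch held a CCAAT match on the opposite strand and a TATAAA match, 221 and 170 bases before the annotated start. The stretch between Col4a1 and Col4a2 held a GC box on the opposite strand 16 bases before the start of Col4a1, and no CCAAT or TATAAA. Col4a1 had a CCAAT match farther upstream, on the opposite strand 170 bases before its start and outside the stretch shown. In the 250 bases before the start, CCAAT was present in 34% of 33469 rat promoters, GGGCGG in 30.5% and TATAAA in 12.9%. Among the 15 chains with an entry it was present in 4, 8 and 2.

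Endothelial markers gave high signal on every array (median 14.30 to 15.08 on the log2 scale). The pericyte marker Rgs5 was high too, at 16.49 to 18.68, while the median of the 11 pericyte markers was 8.36 to 10.19. Il33 checked the labels. It gave 8.07, 8.37 and 9.82 in the knockout against 13.86, 16.32 and 16.60 in the wildtype animals, a difference of -6.84 (SE 0.73, limma adjusted p = 0.0439). It was the only 1 of 11515 genes tested that was called, and this call was lost without knockout 28 (adjusted p = 0.289), 27 (0.661) or 52 (0.0640) and without wildtype 45 (0.674) or 37 (0.0776), while the difference stayed between -7.71 and -6.34 with any 1 array left out. Wildtype 34 stood apart in markers of other skin cells. Its keratinocyte marker median was 15.11 against 7.63 to 11.80 in the other arrays, and its median of fibroblast markers other than collagens was 6.67 against 4.42 to 5.77. The 8 spike-in controls had means of 10.12 to 10.42 on arrays 28, 34 and 45 and of 8.82 to 9.33 on arrays 27, 52 and 37.

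Not all chains were measurable above background. Of the 20 chains 9 exceeded the brightest of the 23 background probesets (5.36 to 5.87 per array) on all 6 arrays, and 8 on none. Col13a1 and Col4a4 lay under the limit for dim genes of 3.52, so 18 chains were tested. Col4a4, a type IV chain of specialised basement membranes such as that of the glomerulus, had values of 2.60 to 3.08. Just inside the limit was Col26a1, with a mean of 3.67 (range 3.29 to 4.09), and just outside it Col13a1, a transmembrane collagen, with 2.98 (2.72 to 3.10). No chain came within 0.5 of the highest value of an array.

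**Figure D1:**
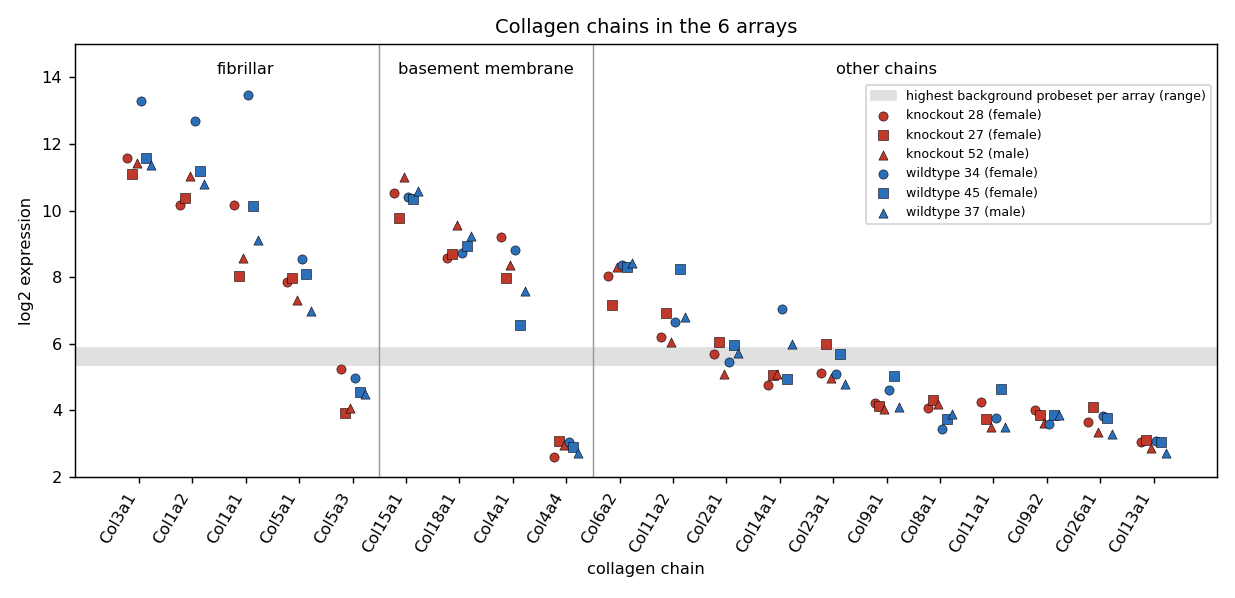
Log2 expression of the 20 collagen chains (y axis) in each of the 6 arrays, ordered by class and by mean; red symbols are knockout and blue wildtype animals, and the grey band spans the brightest background probeset of each array. Col1a1, Col1a2 and Col3a1 are highest in wildtype 34. Of the 20 chains 9 exceed the brightest background probeset on all 6 arrays and 8 on none.

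The comparison of genotypes asks whether the sorted cells of Il33 knockout animals differ in their collagen transcripts. Interleukin-33 protein was not measured, and the Il33 probeset exceeded the brightest background probeset on every array, knockouts included. None of the 18 tested chains passed the test in limma, and 0 had an unadjusted p under 0.05. Over all genes the shares were 0.00868% called and 1.97% at an unadjusted p under 0.05, so a count of 0 among 18 chains is near the background. Their smallest adjusted p was 0.999. Of the tested chains 13 were lower and 5 higher on average in the knockout, with a median difference of -0.15 against 0.037 over all genes tested. Over all 20 chains, without the limit for dim genes, the median was -0.12. The groups did not overlap in 1 chain, Col8a1, where 6.25% of all genes tested did so, 3.36% with the knockout higher and 2.89% with it lower.

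All 5 fibrillar chains had a lower mean in the knockout than in the wildtype, and none passed the test. Col1a1, the main chain of type I collagen, was 10.18, 8.03 and 8.57 in knockout 28, 27 and 52 against 13.47, 10.15 and 9.13 in wildtype 34, 45 and 37. Wildtype 34 was far above every other array, and the remaining wildtype values lay within the range of the knockout values. The means were 8.93 ± 1.12 and 10.92 ± 2.27 (SD, n = 3 each), a difference of -1.99 (SE 0.99, 95% interval -4.21 to 0.23, limma adjusted p = 0.999). Without wildtype 34 the difference was -0.71.

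Col1a2, the partner chain of Col1a1 in type I collagen, was 10.18, 10.37 and 11.03 in the knockout against 12.69, 11.20 and 10.80 in the wildtype animals. Wildtype 37 lay below knockout 52, so the groups overlapped. The difference was -1.04 (SE 0.50, 95% interval -2.17 to 0.093, limma adjusted p = 0.999), and -0.47 without wildtype 34. Col3a1, the type III chain of skin and vessel walls, was 11.57, 11.09 and 11.44 against 13.30, 11.58 and 11.36. Apart from wildtype 34, all arrays lay between 11.09 and 11.58. The Col3a1 difference was -0.71 (SE 0.50, limma adjusted p = 0.999). It was -0.10 without that array and -1.07 without wildtype 37.

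Type V collagen joins type I fibrils and limits their diameter. Its chain Col5a1 was 7.85, 7.98 and 7.31 in the knockout against 8.55, 8.10 and 6.98 in the wildtype, with the highest and the lowest value both in wildtype animals. The difference was -0.16 (SE 0.44, limma adjusted p = 0.999), and 0.17 without wildtype 34. Col5a3 was 5.24, 3.93 and 4.07 against 4.96, 4.54 and 4.5, no higher than the brightest background probeset in any array. Its difference was -0.25 (SE 0.41, limma adjusted p = 0.999). Single arrays moved it widely, to -0.012 without knockout 27, -0.082 without knockout 52, -0.11 without wildtype 34 and -0.67 without knockout 28.

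Of the 3 basement membrane chains tested, Col4a1 was higher on average in the knockout, and Col15a1 and Col18a1 had means closer together than the spread between animals. Col4a1, a chain of the type IV network of nearly all basement membranes, was 9.20, 7.97 and 8.37 in the knockout against 8.81, 6.56 and 7.58 in the wildtype animals. The knockout values all lay above those of wildtype 45 and 37, and wildtype 34 lay among them. The means were 8.51 ± 0.63 and 7.65 ± 1.13 (SD, n = 3 each), a difference of 0.86 (SE 0.57, 95% interval -0.40 to 2.13, limma adjusted p = 0.999). It was 1.44 without wildtype 34, 0.32 without wildtype 45 and 0.52 without knockout 28, and no adjusted p passed 0.05 in any of them. Wildtype 45, the lowest array for Col4a1, was also the lowest for 6 of the 11 pericyte markers and 7 of the 13 blood endothelium markers. It held the lowest value of 24.0% of all genes tested, the largest share of any array. Pdgfrb, the receptor that marks pericytes, was 13.05, 13.62 and 13.15 in the knockout against 11.90, 11.44 and 13.10 in the wildtype animals. On average 9 of the 11 pericyte markers and 11 of the 13 blood endothelium markers were higher in the knockout, with 0 called. Of all 11515 genes tested 6228 were higher. The median difference was 0.30 for the pericyte and 0.34 for the blood endothelium markers. Pdgfrb had the smallest unadjusted p of the pericyte markers (limma, 0.0324), while Tagln (-0.44) and Cnn1 (-0.23) were lower. The part of pericytes and endothelial cells in the Col4a1 values was not tested.

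Col15a1 was 10.54, 9.79 and 11.01 in the knockout against 10.42, 10.36 and 10.60 in the wildtype animals. The wildtype values lay inside the range of the knockout values. Its difference was -0.013 (SE 0.38, 95% interval -0.86 to 0.83, limma adjusted p = 0.999). Col18a1, the precursor of endostatin, was 8.58, 8.71 and 9.56 against 8.74, 8.93 and 9.25, a difference of -0.023 (SE 0.37, 95% interval -0.85 to 0.80, limma adjusted p = 0.999). In both genes the highest value was in knockout 52. Changes up to these bounds are not excluded. The intervals are not adjusted for the number of genes tested, so larger changes could also have missed the adjusted threshold.

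**Figure D2:**
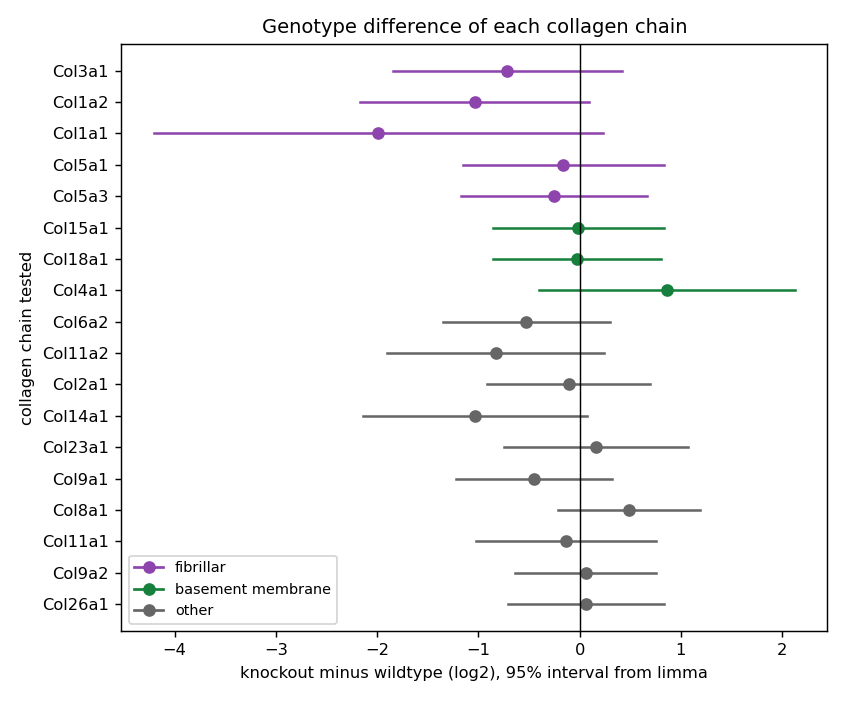
Knockout minus wildtype difference in log2 expression (x axis) of the 18 collagen chains tested, with 95% intervals from limma; purple marks fibrillar, green basement membrane and grey other chains. All 5 fibrillar differences are below 0 and that of Col4a1 is 0.86, and every interval includes 0.

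Among the other chains, Col6a2 of type VI microfibrils was 8.03, 7.18 and 8.31 in the knockout against 8.36, 8.31 and 8.43 in the wildtype. Knockout 27 was the low array, and knockout 52 equalled wildtype 45. The difference was -0.53 (SE 0.37, limma adjusted p = 0.999), and -0.20 without knockout 27. Col14a1, a collagen that sits on the surface of fibrils, was 4.76, 5.05 and 5.08 against 7.04, 4.95 and 6.0. It exceeded the brightest background probeset in 2 arrays, those of wildtype 34 and 37. Its difference was -1.03 (SE 0.49, limma adjusted p = 0.999). It was -0.51 without wildtype 34 and -1.56 without wildtype 45.

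Col11a2, known from cartilage fibrils, was 6.22, 6.94 and 6.07 against 6.65, 8.26 and 6.81, highest in wildtype 45, with a difference of -0.83 (SE 0.48, limma adjusted p = 0.999), or -0.32 without that array. Col2a1, the main cartilage chain, was 5.70, 6.05 and 5.10 against 5.46, 5.98 and 5.74, and Col23a1, a transmembrane collagen, 5.11, 6.01 and 4.96 against 5.10, 5.71 and 4.78. These last chains overlapped between genotypes and lay near the background probesets. Col8a1, a short-chain collagen found in vessel walls, was 4.06, 4.30 and 4.20 in the knockout against 3.45, 3.75 and 3.90 in the wildtype, without overlap. It is named for this after its values were seen. All these values were under the brightest background probeset of their array, and the difference was 0.49 (SE 0.31, limma adjusted p = 0.999). The remaining 4 tested chains, Col9a1, Col9a2, Col11a1 and Col26a1, had values of 3.29 to 5.02, under the brightest background probeset on every array.

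The spread among animals differed between chains. Over the 6 arrays the standard deviation was 1.94 for Col1a1, higher than in 99.7% of the genes tested, 0.94 for Col4a1, 0.89 for Col1a2 and 0.79 for Col3a1. It was 0.40 for Col15a1 and 0.37 for Col18a1, against a median of 0.47 over all genes. Without wildtype 34 it was 0.95, 0.98, 0.43 and 0.20 for Col1a1, Col4a1, Col1a2 and Col3a1. The spread of Col1a1, Col1a2 and Col3a1 was thus smaller without that array and that of Col4a1 was not. Wildtype 34 held the highest value of 4 of the 5 fibrillar chains and of 5 of the 18 tested chains, where it held the highest value of 16.3% of all genes tested.

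Relations between chains were computed for 4 pairs, chosen after the values were seen. The p-values therefore describe these pairs and do not test a relation, and their adjustment covers the 4 pairs only. The permutations took all 6 arrays as exchangeable, without regard to genotype or spike-in side. Wildtype 34 was the highest array for Col1a1, Col1a2 and Col3a1. Pearson's r of Col1a1 and Col3a1 over the 6 arrays was 0.963 (exact permutation p = 0.00556, adjusted 0.0222) and Spearman's rho 0.886 (exact permutation p = 0.0333, adjusted 0.133). Without wildtype 34 and knockout 27, the arrays farthest from the median of Col1a1, r was 0.821 over 4 arrays. For Col1a1 and Col1a2 r was 0.825 (exact permutation p = 0.0722, adjusted 0.0963) and rho 0.371 (p = 0.497, exact), and r became -0.35 without the same arrays, so that relation rested on them. For Col1a2 and Col3a1 r was 0.910 (exact permutation p = 0.0528, adjusted 0.0963), with rho 0.657 (p = 0.175, exact) and r = 0.994 without wildtype 34 and knockout 28. For Col15a1 and Col18a1 r was 0.699 (exact permutation p = 0.126, adjusted 0.126), with rho 0.60 (p = 0.242, exact) and r = 0.304 without knockout 27 and 52. The spike-in sides hold 3 arrays each, too few for a value within them.

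Basement membrane chains were then set against fibrillar chains within each array, as the mean of Col4a1, Col15a1 and Col18a1 minus the mean of the 5 fibrillar chains. Probesets bind with different strength, so only changes of this value between arrays are read. It was 0.436, 0.543 and 1.163 in the knockout against -1.271, -0.497 and 0.589 in the wildtype animals. The knockout values varied by less than the wildtype values, and wildtype 37, a male, lay above the knockout females. The mean was 0.71 ± 0.39 in the knockout and -0.39 ± 0.93 in the wildtype (SD, n = 3 each), a difference of 1.11 on the log2 scale that is given without a test. It was 0.67 without wildtype 34, 1.37 among females and 0.57 between the males. Among arrays of high spike-in signal it was 1.32 and among those of low signal 0.26.

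Both parts of this value contributed. The mean of the fibrillar chains was 8.59 ± 0.37 in the knockout and 9.42 ± 1.05 in the wildtype, a difference of -0.83, or -0.24 without wildtype 34. The mean of the basement membrane chains was 9.30 ± 0.43 and 9.03 ± 0.37, a difference of 0.28, or 0.42 without that array. The basement membrane part came from Col4a1, since Col15a1 and Col18a1 had differences of -0.013 and -0.023.

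**Figure D3:**
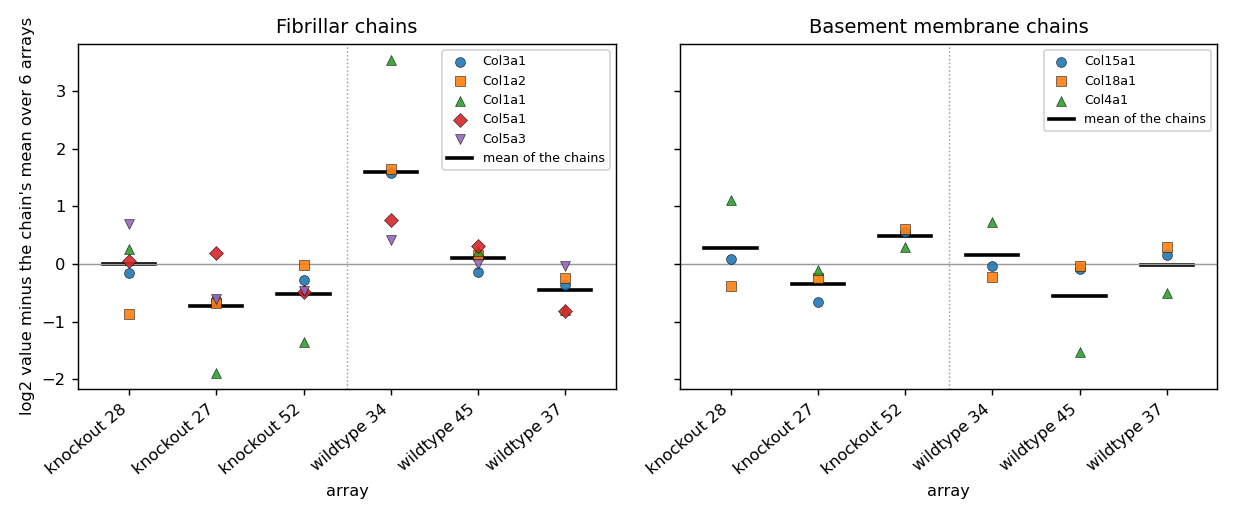
Deviation of each chain from its own mean over the 6 arrays (log2, y axis) for the 5 fibrillar chains (left) and the 3 tested basement membrane chains (right) in each array; black bars are the mean of the chains. The fibrillar mean is 1.59 above its average in wildtype 34 and -0.73 to 0.11 in the other arrays, while the basement membrane mean ranges from -0.55 in wildtype 45 to 0.48 in knockout 52.

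Fibrillar collagens are made mainly by fibroblasts, so markers of other skin cells are given beside them. The mean of the fibrillar chains was 9.0, 8.28 and 8.48 in the knockout against 10.59, 9.11 and 8.55 in the wildtype animals. The fibroblast median, over the 9 of 12 markers on the array, was 5.77, 4.90 and 4.42 against 6.67, 5.08 and 4.92. Wildtype 34 was highest in both, and 6 of the 9 markers had their highest value there. Dcn, the fibril-binding proteoglycan decorin, was 14.47, 10.75 and 9.06 against 16.33, 9.65 and 9.68, and Pdgfra, a receptor that marks fibroblasts, 6.62, 4.82 and 4.31 against 6.67, 4.97 and 3.58. In both of these markers wildtype 34 and knockout 28 were the highest arrays. Fbn1, Thy1 and Pi16 did not follow this order, with their highest values in wildtype 37, knockout 52 and wildtype 45. Among the fibrillar chains, knockout 28 was below only wildtype 34 for Col1a1 (10.18) but was the lowest array for Col1a2 (10.18).

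The keratinocyte median, over 7 of 11 markers, was 11.56, 8.44 and 8.07 in the knockout against 15.11, 11.80 and 7.63 in the wildtype. The arrays of high spike-in signal, 28, 34 and 45, were also those with the highest keratinocyte median and the highest fibrillar mean. The pericyte median, over 11 of 11 markers, ran the other way, with 8.53, 10.19 and 9.73 against 8.36, 8.46 and 9.87. The lymphatic median, over 6 of 7, was 7.12 to 8.56 in the knockout and 5.24 to 8.29 in the wildtype. The leukocyte median, over 9 of 10, was 4.59 to 5.80 and 4.18 to 7.72. Adipocyte, Schwann cell and skeletal muscle markers had medians of 3.54 to 4.6 on all arrays, under the brightest background probesets. No marker of any list was called between genotypes. The part that other skin cells had in the fibrillar values was not tested as a cause. With the fibroblast median as a covariate the Col1a1 difference was -0.94 and that of Col4a1 1.34 (limma adjusted p = 1.0 for each), and with the keratinocyte median -0.78 and 1.25 (adjusted p = 0.999 for each).

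**Figure D4:**
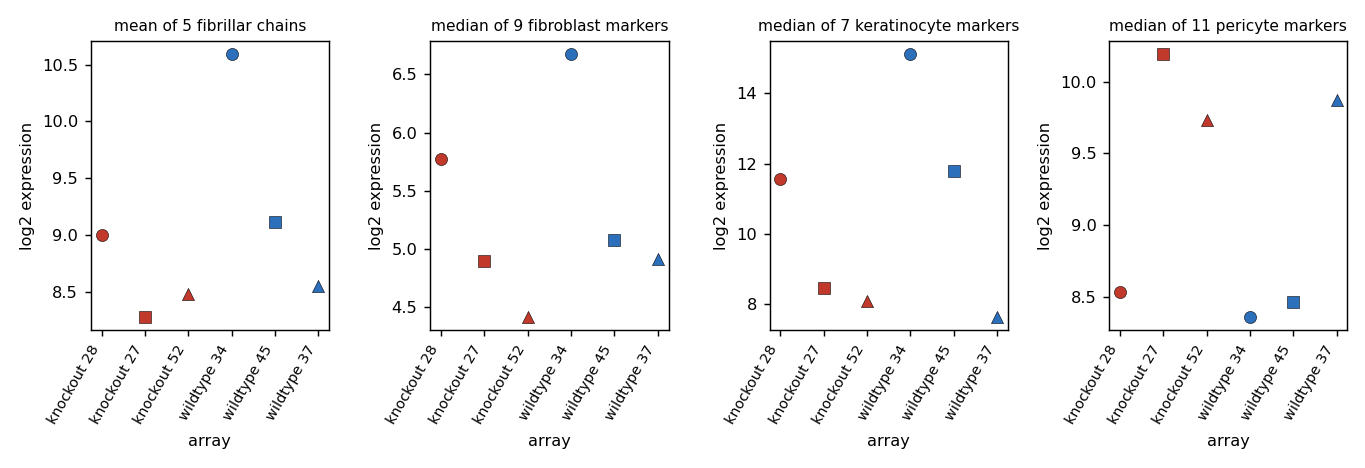
From left to right, the mean of 5 fibrillar chains and the medians of 9 fibroblast, 7 keratinocyte and 11 pericyte markers (log2 expression, y axes with different ranges that do not start at 0) in each array; red is knockout and blue wildtype, with triangles for males. Wildtype 34 is highest in the first 3 panels (10.59, 6.67 and 15.11) and lowest in the pericyte panel (8.36).

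Collagen chains were also compared between sexes, with genotype as a covariate. No chain passed the test in limma and 1 of the 18, Col5a1, had an unadjusted p under 0.05, against 0.0261% of all genes called and 18.7% at that unadjusted p. The share among the chains is thus below that of all genes. Col5a1 was 7.31 and 6.98 in the males and 7.85 to 8.55 in the females, a difference of -0.98 (SE 0.34, limma adjusted p = 0.185). Col18a1 was 9.56 and 9.25 in the males and 8.58 to 8.93 in the females, a difference of 0.67 (SE 0.31, limma adjusted p = 0.293). Both males were on the side of low spike-in signal, with 1 female, so sex and that split are largely the same arrays.

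Whether the genotype difference itself differed between the sexes could hardly be tested, since each genotype has 1 male and the spread in that model comes from the females alone. No chain passed the interaction test in limma and 0 had an unadjusted p under 0.05, against 0% and 1.03% of all genes. Col1a2 had the smallest p (0.0769 unadjusted, 0.999 adjusted), with differences of -1.67 among females and 0.23 between the males. Col1a1 differed by -2.71 and -0.56, Col3a1 by -1.11 and 0.080 and Col4a1 by 0.90 and 0.79. In the last gene the female and male values were of like size.

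Genes that modify, export, trim, cross-link and bind collagen were examined as 6 lists of 58 genes, of which 44 were on the array and 41 tested. None was called between genotypes in limma. An unadjusted p under 0.05 was found in 4, of which 2 were higher and 2 lower, where 1.97% of all genes had one. Of the 41 genes 20 were higher and 21 lower, with a median difference of -0.010. The collagen chaperone Serpinh1 was 16.53 ± 0.27 in the knockout and 16.54 ± 0.62 in the wildtype, Ppib, a prolyl isomerase of collagen folding, 14.63 ± 0.87 and 14.76 ± 0.64, and P4hb, a subunit of prolyl 4-hydroxylase, 12.91 ± 0.57 and 13.38 ± 0.48. In these genes the difference was smaller than the spread between animals of a genotype, and of the 17 tested genes of the list 9 were higher and 8 lower. In that list Tmem38b, an ion channel of the endoplasmic reticulum needed for normal collagen modification, was 6.57, 7.31 and 7.18 against 5.51, 5.06 and 7.02, a difference of 1.16 (SE 0.51, limma adjusted p = 0.999). Wildtype 37 lay within the range of the knockout values, and the difference was 1.74 without it and 0.76 without wildtype 45.

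Of 3 tested export genes 2 were higher and 1 lower. Creb3l2, a transcription factor of the secretory pathway, was 10.12 ± 0.59 against 9.89 ± 0.63, Sec23a, a coat protein of transport vesicles, 7.93 ± 0.71 against 7.91 ± 0.96, and Creb3l1 6.40 ± 0.60 against 6.46 ± 0.08. Among the 3 tested genes of propeptide cleavage, the protease Tll1 was 8.66 ± 0.93 against 9.20 ± 0.75, its relative Bmp1 6.90 ± 0.42 against 6.83 ± 0.44 and the enhancer Pcolce 6.39 ± 1.15 against 6.27 ± 1.31. Each of these differences was smaller than the spread between animals of 1 genotype. The cross-linking oxidases had 1 of 4 genes higher and 3 lower. Loxl2 was 6.68 ± 0.23 against 6.36 ± 0.70, Loxl3 4.93 ± 0.81 against 4.97 ± 1.04 and Loxl1 4.72 ± 0.24 against 5.61 ± 1.20. Loxl1 was 6.99 in wildtype 34 and 4.54 to 5.02 in the other arrays, so it too had its high value in that animal.

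Of the fibril-associated proteoglycans 2 of 8 were higher and 6 lower, with a median difference of -0.44. Bgn, biglycan, was 16.50 ± 0.84 against 16.41 ± 0.76, Dcn 11.43 ± 2.77 against 11.89 ± 3.85 and Prelp, a basement membrane anchor, 11.54 ± 1.62 against 11.57 ± 0.56. Omd, osteomodulin, was 4.27, 3.86 and 4.43 in the knockout against 5.06, 5.69 and 4.98 in the wildtype, without overlap, a difference of -1.06 (SE 0.35, limma adjusted p = 0.999). Apart from wildtype 45, these Omd values lay under the brightest background probesets of their arrays. Of the 8 genes tested Omd alone had no overlap, where 2.89% of all genes tested had none with the knockout lower.

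Collagen receptors had 4 of 6 tested genes higher and 2 lower. The groups did not overlap in 2 with the knockout higher, Itga1 and Itga10, and in 1 with it lower, Ddr1. Over all 6 lists this held for 2 and 2 of 41 genes, against 3.36% and 2.89% of all genes tested. Itga10 was 4.52, 4.79 and 4.63 in the knockout against 4.39, 4.39 and 4.01 in the wildtype, under the brightest background probeset on every array. Itga1, the integrin chain that binds type IV and other collagens together with Itgb1, was 10.11, 10.26 and 9.69 in the knockout against 9.20, 9.34 and 9.07 in the wildtype. All knockout values were above all wildtype values, by 0.82 on average (SE 0.32, 95% interval 0.099 to 1.53, limma adjusted p = 0.999). The difference was 0.84 among arrays of high and 0.91 among those of low spike-in signal. Its partner Itgb1 was 14.89 ± 0.31 against 14.48 ± 0.13. The receptor kinase Ddr2, which binds fibrillar collagens, was 8.93 ± 0.63 against 8.57 ± 0.91. Its relative Ddr1 was 3.63, 3.08 and 3.28 against 5.31, 3.80 and 4.13, without overlap. All Ddr1 values lay under the brightest background probeset of their array. The Ddr1 difference was -1.08 (SE 0.43, limma adjusted p = 0.999), or -0.64 without wildtype 34.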

How the data were processed

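RMA in Affymetrix Expression Console is what the submitters' processing notes list, and the deposited values were read as log2 expression per probeset. The log base rests on that entry. Tool versions and a genome build are not stated. No further scaling was done. The annotation names 15037 genes by 15049 of the 24834 probesets, and the brightest probeset on average stood for a gene. Dim genes, below the 25th percentile of all probeset means (3.52), were not tested, which left 11515. Genotypes were compared with limma 3.58.1 in R 4.3.3, two-sided, and p-values were adjusted by Benjamini-Hochberg over all genes tested (threshold 0.05). Models with sex gave the sex and interaction tests. With 3 animals against 3 the smallest p of an exact permutation test is 0.1, so none was run between genotypes. The median standard error of a difference was 0.387. Chains and lists were chosen with earlier results of these data known. Named are Il33, the fibrillar and basement membrane chains tested, the 12 chains of highest mean and chains without overlap that differ by at least 0.5. Also named are list genes with an unadjusted p under 0.05 and the 3 of highest mean in each list. Col8a1 and Itga10, which fall outside this rule, were added after their values were seen. The scripts were tested on simulated data.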

Additional observations from a re-analysis of the deposited data

How the results depend on the processing

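In 18 alternatives (no limit or a 50th percentile limit for dim genes, quantile normalization again, median centring, sex, keratinocyte or fibroblast median as a covariate, spike-in side as a block, females only, trend and robust options, array weights, mean of probesets, each array left out) the number of chains called was 0, with 0 to 2 at an unadjusted p under 0.05, and the number of synthesis and receptor genes called was 0, with 0 to 5. The difference of basement membrane minus fibrillar chains stayed above 0 (0.618 to 1.598, and 0.668 to 1.598 with an array left out). The median difference of the chains stayed below 0 (-0.35 to -0.057). The sex covariate, trend and robust options, mean of probesets and limits for dim genes cannot change the difference of a chain. Median centring cannot change the basement membrane minus fibrillar value, 1.107 in the main fit. Such alternatives add nothing to the directions given here. Col1a1, Col1a2, Col3a1, Col4a1, Col6a2, Col8a1, Col9a1, Col11a2 and Col14a1 kept their direction in every alternative that tested them, and the other 9 chains tested changed sign in at least 1. With median centring Col15a1 was 0.017 and Col18a1 0.0067. Col2a1 was 0.155 in females only and 0.018 with array weights. Col5a1 was 0.23 with the keratinocyte median, 0.12 with the fibroblast median and 0.095 with the spike-in block, and Col5a3 0.013 and 0.0049 with the first and second of these. Col11a1 was 0.026 with the keratinocyte median and 0.083 with the block. With an array left out Col15a1 ranged from -0.295 to 0.315, Col18a1 from -0.33 to 0.16, Col5a1 from -0.61 to 0.17, Col2a1 from -0.33 to 0.15, Col23a1 from -0.16 to 0.42, Col5a3 from -0.67 to -0.012, Col9a2 from -0.035 to 0.16, Col11a1 from -0.37 to 0.20 and Col26a1 from -0.13 to 0.23. The Il33 difference was -6.84 without the limit for dim genes (adjusted p = 0.0854), -6.84 with the 50th percentile limit (0.0544) and -6.87 in females only (0.117), where the call was lost. For the sex and interaction tests 4 alternatives gave 0 chains called. No paired analysis was possible because the groups share no replicate numbers. With 3 animals a group, differences within the 95% intervals above are not excluded, and larger ones could also have missed the adjusted threshold.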
